A study of Caenorhabditis elegans with 2 samples.

Results

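The cytosolic ribosomal protein genes of Caenorhabditis elegans were examined for binding of CEH-82, a homeobox transcription factor, in whole L3 larvae. They were taken by name, as the protein-coding genes whose names start with rpl-, rps- or rla-, and 81 of the 19973 protein-coding genes on the nuclear chromosomes met this rule. By name, the 50 rpl- and rla- genes were assigned to the large ribosomal subunit and the 31 rps- genes to the small subunit. The data came from chromatin immunoprecipitation followed by sequencing (ChIP-seq) of 2 biological replicates that form 1 group. Both replicates were L3 larvae of strain OP212, with the sexes pooled, and carried the allele unc-119(ed3) on chromosome III and the transgene ddEx58, which provides CEH-82 tagged with enhanced green fluorescent protein (eGFP). The labels name an insertion targeting ceh-82, whereas the letters Ex in a worm transgene name usually mark an extrachromosomal array, so the state of the transgene was not settled here, and the promoter that drives it is not given in the sources used here. No other genotype, stage or mock precipitation was analysed, and a whole larva mixes all cell types, so the lists do not show in which cells the peaks arose or how they differ from a precipitation without the tagged protein.

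Ribosomal proteins assemble with ribosomal RNA into the large subunit, which joins amino acids into protein, and the small subunit, which reads the messenger RNA. Their genes are transcribed strongly in growing animals, and a larva needs a matched supply of proteins for both subunits. In C. elegans many messenger RNAs of such genes receive a spliced leader at the 5′ end, so the annotated gene start can be the splice acceptor and not the place where transcription begins.

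Sequences under some of the strongest peaks are shown first, because the results on position and on shared short words refer to them. Those of rps-1 and rps-20, whose peaks were stronger than those of rps-28 and rpl-12, are not shown. Each is 100 bases centred on the summit (the highest point) of the reproducible peak, read from the RefSeq genome sequence of build ce11 (WBcel235), 5′ to 3′ on the strand of the gene. They lie at chrIII:3867519-3867618 (plus strand) for rpl-3, chrIII:7854628-7854727 (plus) for rpl-35, chrIV:4750019-4750118 (minus) for rpl-20, chrIV:654879-654978 (minus) for rpl-15, chrIII:5679065-5679164 (plus) for rps-12, chrIV:1659200-1659299 (plus) for rps-28 and chrIV:13240658-13240757 (minus) for rpl-12. Capitals mark the words TACGGTAA and ACACTCG on either strand. ACACTCG appears here as its reverse complement CGAGTGT.
rpl-3: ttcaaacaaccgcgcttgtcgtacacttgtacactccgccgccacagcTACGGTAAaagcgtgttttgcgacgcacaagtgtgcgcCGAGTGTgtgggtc
rpl-35: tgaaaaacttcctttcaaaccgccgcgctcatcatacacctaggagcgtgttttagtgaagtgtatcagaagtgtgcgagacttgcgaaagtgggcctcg
rpl-20: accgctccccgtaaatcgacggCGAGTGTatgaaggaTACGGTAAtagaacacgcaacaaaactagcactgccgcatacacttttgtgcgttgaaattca
rpl-15: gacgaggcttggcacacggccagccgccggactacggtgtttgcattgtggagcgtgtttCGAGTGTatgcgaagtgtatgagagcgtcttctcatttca
rps-12: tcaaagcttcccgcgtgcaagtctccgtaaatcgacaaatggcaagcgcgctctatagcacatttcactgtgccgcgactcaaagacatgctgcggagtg
rps-28: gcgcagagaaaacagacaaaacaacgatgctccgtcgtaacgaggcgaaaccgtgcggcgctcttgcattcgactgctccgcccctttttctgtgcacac
rpl-12: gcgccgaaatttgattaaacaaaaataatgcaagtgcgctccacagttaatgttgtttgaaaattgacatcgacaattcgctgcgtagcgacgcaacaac

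A reproducible CEH-82 peak lay at 31 of the 81 ribosomal protein genes (38.3%, exact 95% interval 27.7 to 49.7%), against 446 of the 19892 other protein-coding genes (2.24%). A gene was counted when a summit lay from 500 bp upstream to 100 bp downstream of its annotated start, and by this rule 2.39% of all protein-coding genes were called. Intervals here cover counting error only. Reproducible peaks are the 748 entries that the authors kept by irreproducible discovery rate from both replicates, and they are the 748 strongest of the 30000 candidates called on the pooled replicates. The 31 genes shared 30 distinct peaks, since rpl-39 and rps-30 are divergent neighbours with 1 peak between them. When each replicate's own list was cut at its 748 highest signals, ribosomal protein genes held a summit in 32 of 81 cases in replicate 1 (39.5%, with 2.31% of all protein-coding genes called) and in 24 of 81 cases in replicate 2 (29.6%, with 2.12% called). In the far longer pooled candidate list the count was 73 of 81 (90.1%, with 25.5% of all protein-coding genes called).

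The peaks at ribosomal protein genes stood high in the reproducible list. Their median signal, the deposited strength of a peak on a scale that is not stated, was at percentile 77.8 of the 748 peaks, against percentile 56.1 for the other protein-coding genes with a peak. Of the 31 genes, 22 had a peak above the list's median signal. Signal values rank peaks within 1 list only, and they are not compared between the lists.

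The 4 strongest peaks among the 31 genes belonged to the large subunit, led by rpl-3 (WBGene00004414, chrIII:3867854-3869587), whose protein reaches toward the peptidyl transferase centre. The peak of rpl-3, at chrIII:3867439-3867703, had a signal of 306 and ranked 2 of 748, with its summit 285 bp upstream of the start. Its signal was 224 in replicate 1 (rank 2) and 84.2 in replicate 2 (rank 1, the strongest entry of that list). Both replicates thus placed it at the top, and no other gene start of any kind lay closer to it.

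The gene rpl-35 (WBGene00004449), for a protein beside the exit of the nascent chain tunnel, had a signal of 214 (rank 10), with 157 in replicate 1 and 55.98 in replicate 2, and a summit 456 bp upstream. The peak of rpl-20 (WBGene00004432) had a signal of 209 (rank 12), with 172 in replicate 1 and 37.2 in replicate 2, at 291 bp upstream. The peak of rpl-15 (WBGene00004427), for a protein buried in the ribosomal RNA of the large subunit, had a signal of 179.8 (rank 18), with 138 in replicate 1 and 40.6 in replicate 2, at 353 bp upstream. All 3 were within the first 27 entries of both replicate lists, but the peak of rpl-20 lay nearer the start of its divergent neighbour Y17G9B.5, and that of rpl-15 lay also in the window of K11H12.8.

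The next large subunit genes were rpl-12, for a protein at the base of the stalk, with a signal of 74.6, and rpl-41.2, for a very short basic protein, with 70.8. The other 11 had signals between 27.1 and 54.3, among them rpl-24.2, whose product resembles a factor of ribosome assembly in yeast and human more than a mature ribosomal protein. None of the weaker large subunit peaks was as far ahead of the rest of the list as the first 4.

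Among small subunit genes the strongest peak was at rps-12 (WBGene00004481, chrIII:5679298-5680187), for a protein of the beak of the subunit. Its signal was 112 (rank 34), with 81.3 in replicate 1 and 28.7 in replicate 2, and its summit was 183 bp upstream of the start. The peak lay nearer to the divergent ska-3, a kinetochore gene, and also in the window of the snoRNA F54E7.10, which is encoded inside rps-12.

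The peak of rps-1 (WBGene00004470), for a protein of the platform near the messenger RNA exit, had a signal of 101.1 (rank 43), with 68.6 in replicate 1 and 32.7 in replicate 2, at 265 bp upstream and inside the annotated noncoding RNAs F56F3.10 and F56F3.11. The peak of rps-20 (WBGene00004489), for a protein of the head, had a signal of 95.5 (rank 48), with 69.0 in replicate 1 and 25.4 in replicate 2, at 253 bp upstream. The peak of rps-28 (WBGene00004497), for a small protein at the messenger RNA exit, had a signal of 78.4 (rank 69), with 52.7 in replicate 1 and 25.2 in replicate 2, at 441 bp upstream. Each of these 3 was among the first 87 entries in both replicate lists, and only rps-28 of the 3 had its peak in no other gene's window.

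**Figure D1:**
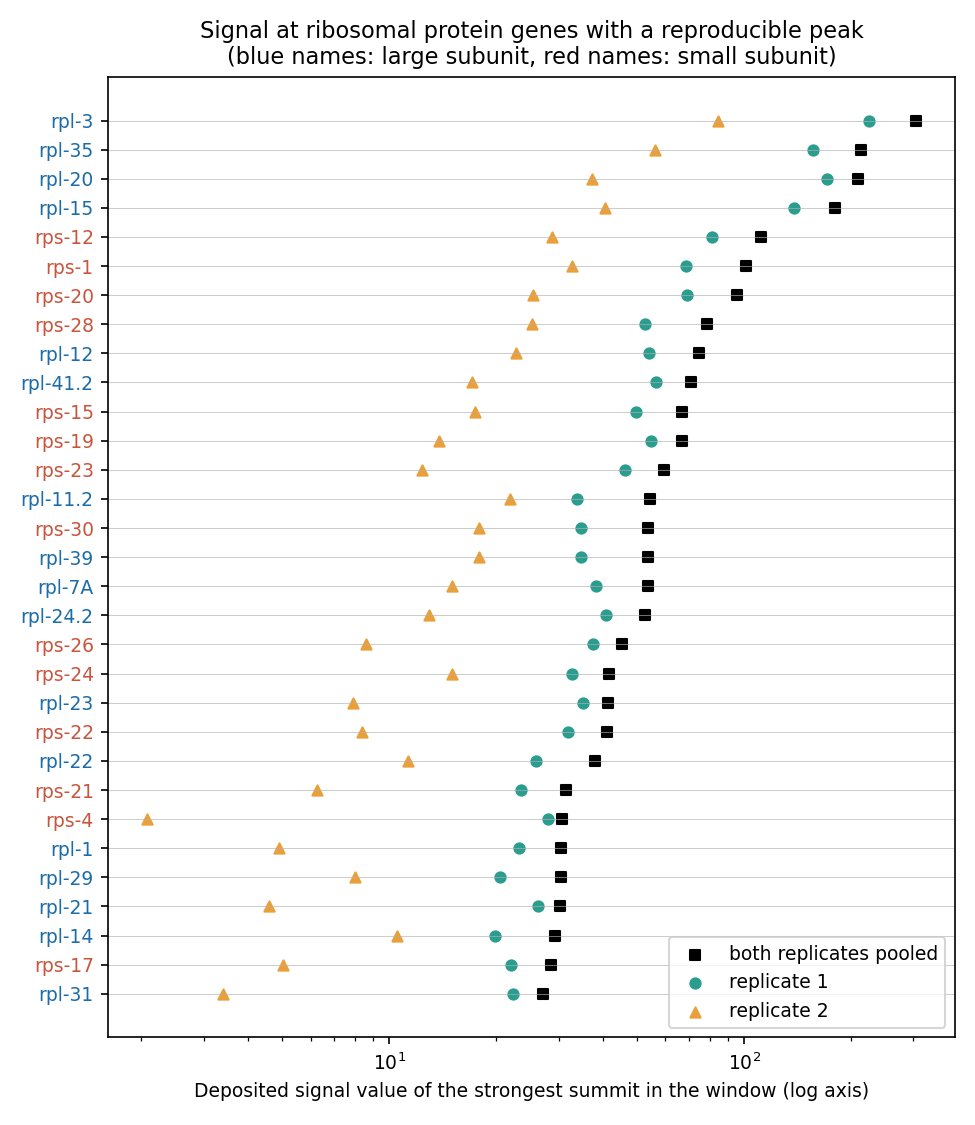
Deposited signal (log axis, scale not stated) of the strongest summit in the window of each of the 31 ribosomal protein genes with a reproducible peak, for the pooled replicates (squares), replicate 1 (circles) and replicate 2 (triangles); names are coloured by subunit. Signal falls from rpl-3 at 306 to rpl-31 at 27.1 in the pooled list, and rps-4 stands apart in replicate 2 with 2.07.

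The shares of large and small subunit genes could not be told apart. A reproducible peak lay at 17 of 50 large subunit genes (34.0%, 21.2 to 48.8%) and at 14 of 31 small subunit genes (45.2%, 27.3 to 64.0%). The difference, large minus small, was -11.2 percentage points with a 95% interval (Newcombe) of -31.8 to 9.998, which includes 0. It was -14.4 points in the 748 strongest entries of replicate 1 (-34.8 to 7.09) and -9.48 points in those of replicate 2 (-29.8 to 10.3). In the pooled candidate list it was 4.90 points, with 46 of 50 large subunit genes against 27 of 31 small subunit genes. Median signal was 53.6 at large subunit genes and 56.6 at small subunit genes, and median summit position was 266 bp upstream at large subunit genes and 265 bp upstream at small subunit genes. With 50 and 31 genes the intervals were wide, and the smallest difference that could be detected was not computed.

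**Figure D2:**
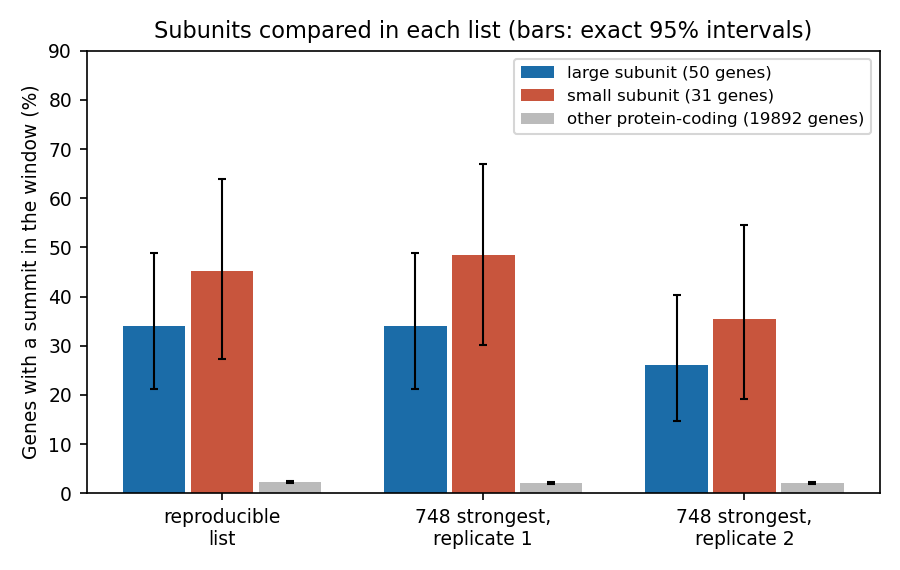
Share of genes with a summit in the window (vertical axis, %) for large subunit, small subunit and other protein-coding genes, in the reproducible list and in the 748 strongest entries of each replicate; error bars are exact 95% intervals. Both subunits lie between 26 and 48.4% with overlapping intervals, while other genes lie between 2.01 and 2.24%.

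The limit of the list fell among ribosomal protein genes of similar signal. Just inside it was rpl-31, with a signal of 27.1 and rank 738 of the pooled candidates. Just outside were rpl-13 with 26.8 (rank 756), rpl-24.1 and rps-10 with a shared candidate of 26.4 (rank 778), rps-0 with 26.2 (rank 804) and rpl-6 with 26.1 (rank 808). Of the 50 genes without a reproducible peak, 42 had a pooled candidate, with a median rank of 2372.5, and 8 had none. Counted to rank 1000 of the pooled list, 40 of 81 ribosomal protein genes had a summit (49.4%, with 3.08% of all protein-coding genes called). Counted to rank 2000, the number was 48 of 81 (59.3%, with 5.24% called).

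The 8 genes without a pooled candidate were rla-1, rpl-11.1, rpl-16, rpl-25.1, rps-2, rps-11, rps-18 and rps-27. For rps-18, the nearest reproducible summit was 535 bp upstream, just beyond the window, with a signal of 39.6. None of the 3 stalk genes had a reproducible peak. The stalk base gene rla-0 had a pooled signal of 12.9 at rank 3593, with 12.9 in replicate 1 and 4.13 in replicate 2. Its summits lay at -57 bp in the pooled list and -47 bp in replicate 2, but at -272 bp in replicate 1. The stalk gene rla-2 had a pooled signal of 14.1 at rank 2915, 77 bp downstream of its start, with 10.5 in replicate 1 and no entry in replicate 2. The other stalk gene, rla-1, had an entry in replicate 2 alone, with 4.15.

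Genes of the same base name differed from each other. The gene rpl-11.2 had a signal of 54.3, with 33.7 in replicate 1 and 21.8 in replicate 2, whereas rpl-11.1 had no entry in any of the 4 lists. The gene rpl-41.2 had a signal of 70.8, with 56.6 in replicate 1 and 17.1 in replicate 2, whereas the candidate of rpl-41.1 ranked 27000 of 30000, with 4.67 in replicate 1 and 2.87 in replicate 2. For rpl-24.2 the signal was 52.6, against the 26.4 of rpl-24.1 just outside the list, and neither rpl-25.1 nor rpl-25.2 had a reproducible peak. Reads that fit both copies of a near-identical pair could be placed at either, and the authors' handling of them is not given in the sources used here.

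Summits at ribosomal protein genes lay well upstream of the annotated start and close to a common distance. Their median position was 265 bp upstream (quartiles 330.5 and 248 bp upstream), against 186 bp upstream for the other 446 genes with a peak (quartiles 283.75 and 112.25 bp upstream). Between 300 and 250 bp upstream lay 13 of the 31 summits (41.9%), against 42 of 446 at other genes (9.42%). At least 200 bp upstream lay 26 of 31 (83.9%), against 203 of 446 (45.5%), and at or downstream of the start lay 0 of 31, against 13 of 446. The summit nearest to a start was that of rpl-12, 57 bp upstream, and the farthest was that of rps-24, 470 bp upstream. For rps-24 the replicates' summits were 156 bp apart, at -474 bp in replicate 1 and -318 bp in replicate 2. Distances depend on which base the annotation calls the start.

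**Figure D3:**
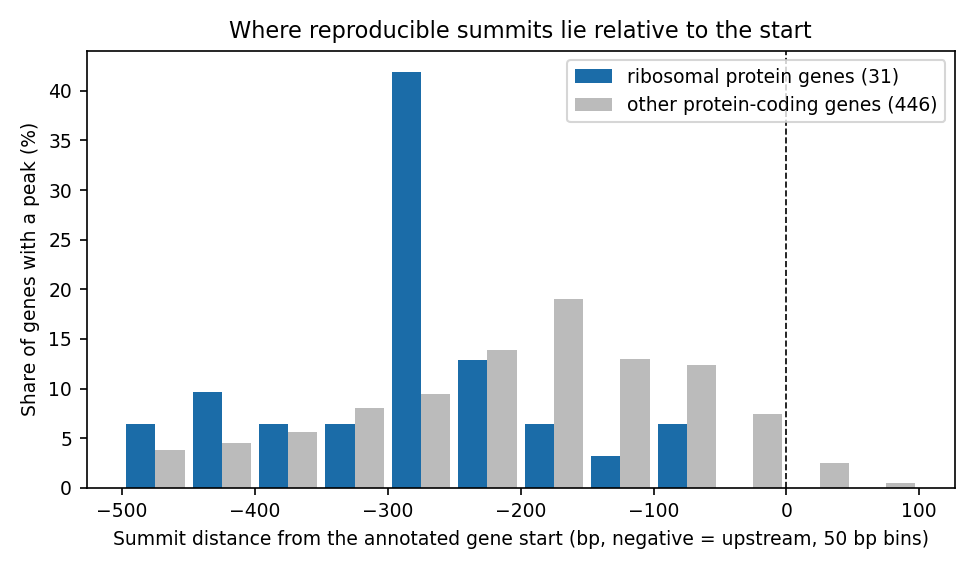
Position of the strongest reproducible summit relative to the annotated gene start (horizontal axis, bp, negative is upstream, 50 bp bins) as a share of genes with a peak (vertical axis, %), for 31 ribosomal protein genes and 446 other protein-coding genes. The bin from 300 to 250 bp upstream holds 41.9% of the ribosomal protein genes and 9.42% of the others.

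The starts themselves more often followed the letters of a splice acceptor, and splicing itself was not examined. The letters TTTCAG, the core of the worm splice acceptor, stood within the 12 bases before the start of 40 of 81 ribosomal protein genes (49.4%), against 13.6% of all protein-coding genes, on the strand of the gene. The looser TTNCAG, which includes TTTCAG, stood there in 61 of 81 (75.3%), against 21.4% of all protein-coding genes. Summits of ribosomal protein genes were at a median of 274 bp upstream where TTTCAG was present (20 genes) and 264 bp upstream where it was absent (11 genes). Over all protein-coding genes with a peak these medians were 242 bp and 172 bp upstream. By TTNCAG the classes of ribosomal protein genes lay further apart, with medians of 270.5 bp upstream where it was present (24 genes) and 163 bp upstream where it was absent (7 genes). Over all protein-coding genes with a peak the medians by TTNCAG were 243 bp and 149 bp upstream. The part that acceptor sites play in the distances was not tested.

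Many of the peaks cannot be given to the ribosomal protein gene alone. Of the 31 genes, 17 (54.8%) had a peak that also lay in the window of another protein-coding gene, against 203 of the other 446 genes (45.5%). In 9 cases another protein-coding start was nearer the summit, and in 14 cases a start of any kind was nearer. With each summit given to the nearest protein-coding start, 22 ribosomal protein genes kept a peak. By that rule 1.83% of all protein-coding genes were called, against 2.39% by the main rule. For starts of any kind no share for other genes is given. The partners included ekl-4 at rps-20, the securin gene ify-1 at rpl-22, the DREAM complex gene lin-54 at rpl-12, hsr-9 at rps-19 and tmem-107 at rps-26. A divergent protein-coding start within 1000 bp was present at 48 of the 81 genes (59.3%), against 17.7% of all protein-coding genes. Ribosomal protein genes with and without such a neighbour had a peak in similar shares, 18 of 48 (37.5%) and 13 of 33 (39.4%), whereas over all protein-coding genes the shares were 6.89% and 1.42%. The signal of the 17 shared peaks ranged from 27.1 to 209 with a median of 53.6, and that of the 14 unshared peaks from 28.5 to 306 with a median of 47.0.

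A same-strand gene ending within 500 bp upstream, as in an operon, preceded 9 of the 81 genes, and 1 of these 9 (rps-17) had a reproducible peak, against 30 of the other 72. Over all protein-coding genes, 18.1% had such an upstream gene, and a peak was called at 1.69% of those with it and 2.54% of those without it. Peaks of 3 genes fell in the window of a snoRNA, a class of small RNA that guides modification of ribosomal RNA. Beside F54E7.10 at rps-12, these were Y24D9A.9, encoded inside rpl-7A, and F39B2.14, which lies inside tmem-107, the divergent neighbour of rps-26. Of the 31 summits, 26 lay inside no annotated gene and 1, at rpl-24.2, lay inside a protein-coding gene, C03D6.1. Matching shares for other genes with a peak are not given for snoRNA windows or gene bodies. These counts are therefore not read as particular to ribosomal protein genes.

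The 2 replicates gave related rankings of these genes. All 31 genes had an entry in both replicate lists. The first 748 ranks of replicate 1 held 29 of them, those of replicate 2 held 22, both held 21 and 1 gene was in neither. These were 93.5% in replicate 1 and 71.0% in replicate 2, near the 86.3% and 66.1% of the other 446 protein-coding genes with a peak. Spearman's rho between the replicates' signals was 0.847 over these 31 genes and 0.502 over the 431 other protein-coding genes with a peak and both entries, given as descriptions over genes that share the same 2 libraries. Over the 60 ribosomal protein genes with both entries it was 0.744. The replicates' summits were a median of 22 bp apart at the 31 genes, 13 of them at most 20 bp apart and 8 more than 50 bp apart, against a median of 105 bp at 29 ribosomal protein genes without a reproducible peak. The 31 genes come from a list made by irreproducible discovery rate from these same replicates. Their smaller summit gaps, and their higher rho than over the 60 genes, are therefore no independent measure of agreement.

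The 9 ribosomal protein genes that ranked below 748 in replicate 2, a share near that of the other genes, were rpl-1, rpl-21, rpl-23, rpl-29, rpl-31, rps-4, rps-17, rps-21 and rps-22. The extreme was rps-4, with a signal of 28.1 in replicate 1 (rank 406) and 2.07 in replicate 2 (rank 21588 of 22611). Conversely, rpl-9 and rps-13 ranked 557 and 659 in replicate 2 without a reproducible peak, and rpl-6, rpl-33 and rps-3 ranked 589, 657 and 741 in replicate 1 without one.

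The 100 bases around the 30 summits were rich in G and C, at 49.1 ± 5.48% (SD over the 30 windows), much like the 718 other reproducible summits (48.5 ± 8.02%) and above 34.4 ± 8.48% at the same distance, 265 bp upstream, of all 19973 protein-coding starts. Short words counted on either strand differed in how far these peaks resembled the rest of the list. The word GTCTC was in 12 of 30 ribosomal protein gene summits, 39.4% of the other reproducible summits and 11.9% of windows at all starts. The word TGCGC was in 11 of 30 (36.7%), 34.7% and 6.49% of the same sets. For both words ribosomal protein gene peaks were near the rest of the list as a whole. Summits of other protein-coding promoters (336) held GTCTC in 42.3% and TGCGC in 47.9%.

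Of the other words counted, CTGCGTC and GAGAGAG had lower shares at these summits than in the rest of the list. CTGCGTC was in 0 of 30 ribosomal protein gene summits (exact 95% interval 0 to 11.6%), against 100 of 718 other summits (13.9%) and 1.21% of windows at all starts. A limit of 3 counts gives a share of up to 10%, less than the exact bound. GAGAGAG was in 1 of 30 (3.33%, exact 95% interval 0.0844 to 17.2%), against 1.80% of windows at all starts. Its share at other summits, 14.2%, lay inside that interval. At the 336 summits of other protein-coding promoters the shares were 14.9% for CTGCGTC and 9.52% for GAGAGAG. With 200 bp around the summit, CTGCGTC was in 2 of 30 (6.67%, 0.818 to 22.1%), against 20.6% of other summits. GCGCGC, which overlaps TGCGC where a T precedes it, was in 3 of 30, against 11.1% of other summits and 1.14% of windows at all starts. TAAT, the core bound by many homeodomain proteins, was in 33.3% of ribosomal protein gene summits, 33.1% of other summits and 68.2% of windows at all starts. TTTCAG was in 6.67% of ribosomal protein gene summits, 5.57% of other summits and 17.7% of windows at all starts. Windows at all starts held less G and C (34.4%, against 49.1% at ribosomal protein gene summits), and the shares of words were not adjusted for this.

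Conversely, 3 words were frequent at ribosomal protein genes and rare in the rest of the list. They were chosen after their counts were seen, from the most frequent words of 7 and 8 letters at these summits, so their shares are descriptions. ACACTCG was in 10 of 30 summits (33.3%, 17.3 to 52.8%), against 1.81% of other summits and 0.476% of windows at all starts. TACGGTAA was in 7 of 30 (23.3%, 9.93 to 42.3%), against 1.67% and 0.436%. CAGCCAA was in 6 of 30 (95% interval 7.71 to 38.6%), against 0.696% and 1.01%. The 336 summits of other protein-coding promoters held ACACTCG in 1.79%, TACGGTAA in 3.27% and CAGCCAA in 0.595%. ACACTCG was at 9 of 17 large subunit summits and 1 of 14 small subunit summits, and CAGCCAA was at 1 of 17 large subunit summits and 5 of 14 small subunit summits. Over whole promoter windows the subunits were closer for ACACTCG, at 12 of 50 large subunit genes and 6 of 31 small subunit genes (19.4%), and for CAGCCAA they were at 7 of 50 large subunit genes and 10 of 31 small subunit genes (32.3%).

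**Figure D4:**
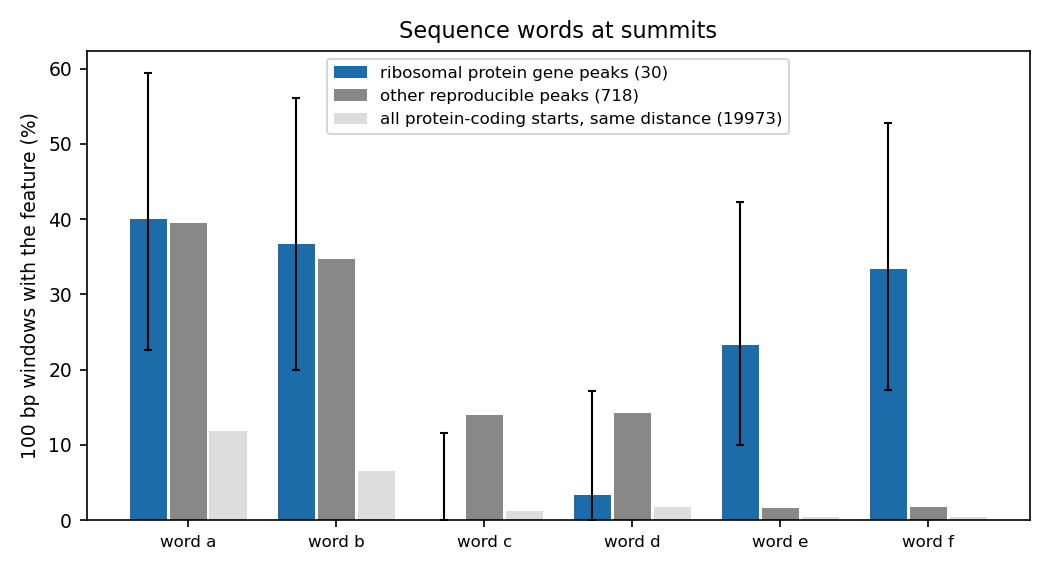
Share of 100 bp windows holding each word on either strand (vertical axis, %) at ribosomal protein gene summits, other reproducible summits and all protein-coding starts at the same distance; error bars are exact 95% intervals for the first set. Word a is GTCTC and word b is TGCGC, both about as common at the 30 summits as at the other 718. Word c is CTGCGTC (0 against 13.9%) and word d is GAGAGAG (3.33 against 14.2%), while word e is TACGGTAA (23.3 against 1.67%) and word f is ACACTCG (33.3 against 1.81%).

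In 6 of the 30 summit windows, TACGGT and ACACTCG stood in a fixed arrangement, with 1 base between them, against 2 of 718 other summits (0.279%) and 0.0551% of windows at all starts. With A as the base between, the words TACGGTAA and ACACTCG overlap by 1 letter. Stretches of 24 bases show the arrangement at 5 of the genes, read on the strand that begins with TACGGT, with capitals for TACGGT and ACACTCG. They lie at chrIV:12391293-12391316 (minus strand) for rps-23, chrX:2242956-2242979 (plus) for rpl-11.2, chrII:5055380-5055403 (minus) for rpl-22, chrIV:13881973-13881996 (minus) for rpl-29 and chrIII:8130514-8130537 (plus) for rpl-21.
rps-23: gaggTACGGTaACACTCGtttcag
rpl-11.2: tgacTACGGTaACACTCGtttctg
rpl-22: taacTACGGTcACACTCGtttcag
rpl-29: cggaTACGGTcACACTCGttcagc
rpl-21: acagTACGGTaACACTCGtttcaa

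The sixth gene was rpl-1. Of the strongest peaks, those of rpl-3, rpl-20 and rpl-15 held TACGGT and ACACTCG apart from each other, as their sequences show. Those of rps-1 and rps-20 held TACGGT without ACACTCG, and those of rpl-35, rps-12, rps-28 and rpl-12 held neither. The genes with the fixed arrangement had signals from 30.4 to 59.5, below the first 12 of the 31.

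The arrangement, too, was chosen after its counts at these summits were seen. Its counts over whole promoter windows include the 6 genes in which it was noticed, so they describe where it occurs and are no independent support. It was in the windows of 13 of 81 ribosomal protein genes (16.05%), against 28 of 19892 other protein-coding genes (0.141%), and 7 of those 28 shared the site of a ribosomal protein gene. The 6 nuclear chromosomes held 30 such sites in all, 12 of them in the window of a ribosomal protein gene. Large and small subunit genes had it in similar shares, 8 of 50 and 5 of 31. The sites were 170 to 488 bp upstream of these genes, with a median of 252 bp. Of the 13 genes with a site, 6 had a reproducible peak (46.2%), against 25 of 68 without a site (36.8%). Among other protein-coding genes the shares with a peak were 10 of 28 with a site (35.7%) and 2.19% without one. Only 6 of those 10 had a site outside the windows of ribosomal protein genes. These 6 formed pairs with the same pooled rank, so the 10 genes are not independent of each other or of the ribosomal protein genes. The other 7 ribosomal protein genes with a site had pooled candidates at ranks 778 (rpl-24.1 and rps-10, which share a site), 808 (rpl-6), 898 (rps-29), 945 (rpl-34), 3404 (rps-13) and 4076 (rps-7). A match of letters does not show what protein binds there.

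Counts for other genes of the translation machinery are set beside the 38.3% of ribosomal protein genes as descriptions, without a test. Translation factor genes had a reproducible peak at 8 of 39 (20.5%, 9.30 to 36.5%), with a median summit 162 bp upstream. The strongest were iff-2, the hypusinated factor, with a signal of 97.9, then the elongation factor genes eef-2 with 66.8 and eef-1G with 56.6. Mitochondrial ribosomal protein genes had one at 5 of 70 (7.14%, 2.36 to 15.9%), led by mrpl-28 with 87.0, mrps-7 with 62.7 and mrpl-55 with 39.3. Ribosome biogenesis genes had one at 3 of 25 (12%, 2.55 to 31.2%), which were rbd-1 with 59.8, the fibrillarin gene fib-1 with 39.5 and lpd-6 with 28.6. The tRNA synthetase genes had one at 1 of 31 (3.23%), ears-2 with 72.9, and RNA polymerase I genes at 0 of 7, which allows a share of up to 42.9% by the limit of 3 counts (exact 95% interval 0 to 41.0%).

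Ribosomal proteins made as fusions or known by other names fall outside the name rule. Of these, ubl-1, a fusion of a ubiquitin-like protein with a small subunit protein, had a peak with a signal of 37.5, 183 bp upstream. The fusion gene ubq-2 and the small subunit scaffold gene rack-1 had no reproducible peak, and their pooled candidates ranked 2187 and 5509.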

How the data were processed

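Peak lists on genome build ce11 were used, in the 10-column layout of narrowPeak files without headers. Per the text files deposited with the lists, the authors made a reproducible list from both replicates by irreproducible discovery rate, a candidate list from the pooled replicates and a candidate list from each replicate. How reads were aligned, which program called the peaks and which threshold was applied is not given in the sources used here. Column 7, the deposited score, is a signal value of unstated scale, and the deposited summit is an offset from the peak start. No read counts were used, so the depth is unknown, and lists on build ce10 were not used.

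Genes and starts came from Ensembl release 115 (WBcel235) and sequences from the RefSeq genome of the same assembly, inside whose chromosomes all entries lay. The strongest summit in a window stood for its gene. Counts carry exact Clopper-Pearson intervals at 95%, and the subunit difference a Newcombe interval. With 2 samples of 1 group, which the labels call biological replicates, no test over samples was made. Window counting was tested on simulated data. Genes were named by rule, namely every ribosomal protein gene with a reproducible peak, the first 8 in full, the 5 next outside the list, the nearest and farthest summits, shared windows, paralogs and up to 3 genes of each other list. Other genes named were chosen after their values were seen. The genes, lists and words were chosen with earlier results of these data known. Analyses used Python 3.11.15, NumPy 2.4.6, SciPy 1.17.1, pandas 2.3.3, statsmodels 0.14.6 and matplotlib 3.10.9.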

Additional observations from a re-analysis of the deposited data

How the results depend on the processing

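The number of ribosomal protein genes with a peak depended most on the window and on shared summits. With 250 bp upstream to 50 bp downstream it was 9 (6 large and 3 small subunit genes, against 1.57% of all protein-coding genes), and the median summit was then 183 bp upstream (-183). Without summits that also lay in another protein-coding window it was 14 (8 large and 6 small, against 1.29%), with a median position of -291.5 bp and a median signal percentile of 66.6. With each summit given to the nearest protein-coding start, small subunit genes numbered 8 and 1.83% of all protein-coding genes were called. Among peaks at or above the median signal, large subunit genes numbered 11 and 1.33% were called. The share of all protein-coding genes was 3.07% with 1000 bp upstream to 200 bp downstream and 2.69% by overlap of the peak interval. Leaving out either replicate gave 24 to 32 ribosomal protein genes, 13 to 17 large and 11 to 15 small, 2.12 to 2.31% of all protein-coding genes, and medians of -279.5 to -263 bp. With 200 bp around the summit, TAAT was in 56.7% and TTTCAG in 23.3% of ribosomal protein gene windows. Of the alternative values, 46 stayed within 1.5 times the count, or within the spread of the replicates or the interval. The other 21 moved beyond it. The 748 strongest pooled candidates are the reproducible peaks themselves, so the values of that setting could only stay the same. The order of the subunit shares reversed with the narrow window (6 of 50 large, 3 of 31 small). It reversed too with the nearest start (14 of 50 large, 8 of 31 small), the large subunit share being higher in both. Windows of another size and lists of fewer peaks change counts by construction, and the cause of the other changes was not tested. No paired analysis was possible because both replicates belong to 1 group.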

Other observations

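Away from ribosomal protein genes, 21 protein-coding genes had the arrangement of TACGGT, 1 base and ACACTCG in a promoter window with no ribosomal protein gene at the same site. Of these, 6 had a reproducible peak, namely ndk-1 and F25H2.6, npp-3 and top-2, and pdtf-1 and T26A8.4. The gene ndk-1 encodes a nucleoside diphosphate kinase, npp-3 a nuclear pore protein and top-2 a topoisomerase. The members of each pair had the same pooled rank, 204 for ndk-1 and F25H2.6, 170 for npp-3 and top-2 and 132 for pdtf-1 and T26A8.4. Of the 30 sites in the nuclear chromosomes, 8 lay within 50 bp of a reproducible summit, 6 of them at ribosomal protein genes.

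Ribosomal protein genes with a peak were spread over the chromosomes. They were 10 of 25 on chromosome I, 1 of 10 on II, 8 of 18 on III, 9 of 18 on IV, 2 of 8 on V and 1 of 2 on X. Over all protein-coding genes the shares called were 3.27% on I, 2.23% on II, 4.13% on III, 2.50% on IV, 1.42% on V and 1.61% on X.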
